A study of Homo sapiens with 4 samples.

Results

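The p53 sites described here lie at the interferon receptor cluster of chromosome 21 and at STAT3 on chromosome 17, in HCT116 colorectal cancer cells grown as spheroids. They were found by chromatin immunoprecipitation and sequencing (ChIP-seq) with DO-1, an antibody to the N-terminal part of p53 that mutant and wildtype protein share. Cells labelled p53-R273H, in which an arginine of p53 that touches DNA is a histidine, were set against cells labelled wildtype control. Both genotypes were HCT116 at passages 13 to 18, in a serum-free medium with 20 ng/ml of epidermal and 20 ng/ml of basic fibroblast growth factor. The sources used here do not say how R273H was introduced or whether either line was a single clone. Each genotype had 1 ChIP library, 1 input library and 1 deposited peak list, so a difference between genotypes could not be checked against replicates. Peaks were taken when they lay inside or within 50 kb of the span of IFNAR2, IL10RB, IFNAR1 and IFNGR2, or inside or within 10 kb of STAT3. Lists were assigned by name and ChIP sample title. The description field instead puts the list named for R273H under both ChIP samples and the other, named ctrl-19-7, under the inputs, so each statement on 1 genotype rests on the titles. The loci were chosen by their peak scores and by the presence or absence of an overlapping peak in the other list. Positions, scores and overlaps below are therefore a description, and nothing was tested. The rule found 1 of the 2008 peaks in the R273H list and 2 of the 2059 peaks in the wildtype list, which makes 3 of 4067.

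Class II cytokine receptors are membrane chains that pair on the cell surface and activate JAK kinases, which in turn phosphorylate STAT transcription factors. IFNAR1 and IFNAR2 form the receptor for type I interferons, IFNGR2 is the signalling chain of the interferon-gamma receptor, and IL10RB is a chain common to the receptors for IL-10, IL-22 and type III interferons. STAT3 carries signals from IL-10, IL-22 and the IL-6 family, and in the intestinal epithelium it is known for roles in repair and in tumour growth. Wildtype p53 binds DNA as a tetramer at response elements built of paired half-sites.

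Promoter sequences from RefSeq (GRCh38.p14, the assembly also called hg38) were available for 4 of the 5 genes, all but IFNAR2. They run from 250 bases before the annotated start to 50 bases after it. They are shown because these gene starts carried no peak in either list, and they give the sequence at the starts from which the peak distances below were measured. IFNAR1 had a further start window 575 bases downstream, which held no half-site and no peak either and is not printed. Capitals mark a match to the p53 half-site consensus, which reads the same on both strands.
IFNAR1 promoter (chr21:33324145-33324444, plus strand): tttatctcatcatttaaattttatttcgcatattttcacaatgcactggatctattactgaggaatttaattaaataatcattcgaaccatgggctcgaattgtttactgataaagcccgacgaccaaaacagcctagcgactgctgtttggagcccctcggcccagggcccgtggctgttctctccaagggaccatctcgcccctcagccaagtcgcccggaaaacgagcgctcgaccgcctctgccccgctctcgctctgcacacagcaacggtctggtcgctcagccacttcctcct
IFNGR2 promoter (chr21:33403163-33403462, plus strand): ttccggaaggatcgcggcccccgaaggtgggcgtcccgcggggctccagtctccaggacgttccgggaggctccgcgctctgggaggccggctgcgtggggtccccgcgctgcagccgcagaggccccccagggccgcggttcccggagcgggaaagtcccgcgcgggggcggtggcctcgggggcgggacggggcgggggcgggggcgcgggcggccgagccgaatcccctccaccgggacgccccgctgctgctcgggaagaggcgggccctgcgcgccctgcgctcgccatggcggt
IL10RB promoter (chr21:33266117-33266416, plus strand): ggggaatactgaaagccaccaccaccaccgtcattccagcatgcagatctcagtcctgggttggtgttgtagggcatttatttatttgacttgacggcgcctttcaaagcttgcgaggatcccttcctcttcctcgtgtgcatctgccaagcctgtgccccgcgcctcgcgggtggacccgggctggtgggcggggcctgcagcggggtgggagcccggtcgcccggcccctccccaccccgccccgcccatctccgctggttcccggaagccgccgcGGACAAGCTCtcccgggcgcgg
STAT3 promoter (chr17:42388393-42388692, minus strand): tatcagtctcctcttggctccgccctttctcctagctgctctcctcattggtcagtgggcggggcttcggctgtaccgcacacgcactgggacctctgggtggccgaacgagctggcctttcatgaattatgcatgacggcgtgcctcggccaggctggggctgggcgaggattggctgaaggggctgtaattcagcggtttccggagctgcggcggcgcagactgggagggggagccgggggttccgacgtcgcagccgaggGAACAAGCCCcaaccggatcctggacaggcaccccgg
IL10RB and STAT3 each had 1 half-site match, GGACAAGCTC beginning 28 bases after the IL10RB start and GAACAAGCCC beginning 13 bases after the STAT3 start. IFNAR1 and IFNGR2 had none. Of all 35116 promoter windows, 6.63% held a half-site. A full site, made of 2 half-sites with 0 to 13 bases between them, was in 10 windows, none of them at these genes. TTCNNNGAA, the consensus that STAT dimers recognise, was searched too and is its own reverse complement. It was in 7.66% of the windows and, among these genes, in that of IL10RB, where it did not overlap the half-site. The core of the interferon-stimulated response element was searched on both strands. It was in 3.57% of the windows and in none at these genes. A match describes letters and does not show a bound site. No sequence of the peaks themselves was available here.

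The receptor cluster carried a single peak in each list, at the same place, in the stretch between IFNAR1 and IFNGR2. The R273H peak spanned 760 bp (hg38 chromosome 21, 33366995 to 33367754) and the wildtype peak 994 bp (33366954 to 33367947). The R273H peak lay wholly inside the wildtype peak, which reached 41 bp further on the lower side and 193 bp further on the upper side. Both peaks were intergenic in the RefSeq gene table. The R273H peak began 7131 bp past the 3′ end of IFNAR1 and the wildtype peak 7090 bp past it. IFNAR1 runs on the plus strand, and the middle of the R273H peak was 42.98 kb downstream of its start, against 43.06 kb for the wildtype peak. IFNGR2, next on the same strand, lay 35.1 kb beyond the R273H peak and 34.9 kb beyond the wildtype peak. Its annotated promoter start was 36.04 kb from the R273H midpoint and 35.96 kb from the wildtype midpoint. IL10RB ended 56.8 kb below both peaks and IFNAR2 101.3 kb below both. Only IFNAR1 was therefore within 10 kb of the peaks.

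**Figure D1:**
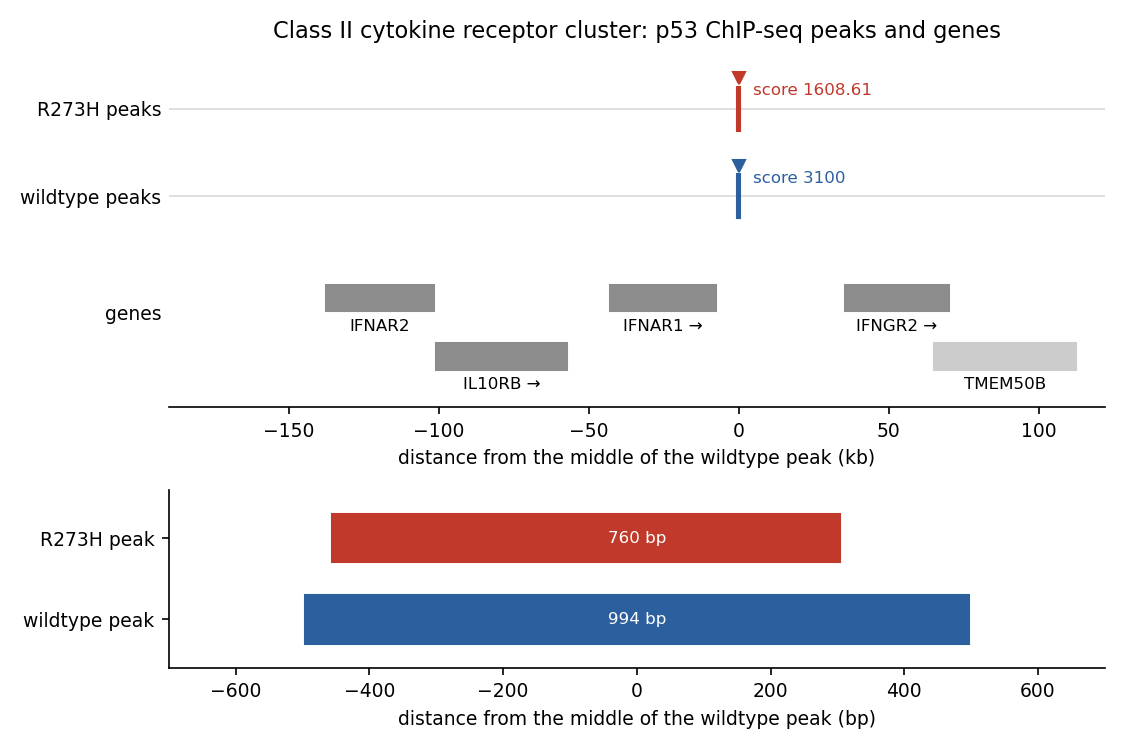
Upper panel, genes (grey bars, arrows for strand where a promoter entry gives it, TMEM50B in light grey as a neighbour) and p53 peaks (coloured bars to scale, marked by triangles) by distance in kb from the middle of the wildtype peak. Lower panel, both peaks in bp from the same point; the R273H peak of 760 bp lies inside the wildtype peak of 994 bp.

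The cluster peak stood near the top of each list by the authors' score, a number given to each peak within its own list on a scale that the sources used here do not state. Scores rank peaks within a list and are not compared between lists, although a check at the end applied the same score cutoff to both. The R273H peak scored 1608.61, with 11 higher among 2008 peaks, so that 99.4% of the list scored lower. The wildtype peak scored 3100, a value it shared with the other peaks of a group of 22, and 1 peak scored higher. The score does not order the peaks within that group. In that list 98.9% of peaks scored lower. Its width was less extreme, at rank 536 of the R273H list and 251 of the wildtype list, where the median widths were 375 and 324 bp.

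Chromosome 21 holds the ribosomal RNA genes between 8 and 9 Mb, where many high-scoring peaks lay. Outside that stretch the cluster peak was the highest on the chromosome in both lists. In the R273H list it was followed, among 55 such peaks, by one scoring 202. In the wildtype list the next highest of 40 scored 808. The peak was also alone in its neighbourhood. The nearest other R273H peak was 568 kb away and scored 50.88, close to the lowest score of that list, 50.02. The nearest other wildtype peak was 563 kb away and scored 64.89. Across the lists the median distance from a peak to the next was 58.2 kb in the R273H list (quartiles 9.2 to 611) and 148 kb in the wildtype list (17.2 to 754). In the R273H list 25.7% of peaks were further from their neighbour than the cluster peak, and in the wildtype list 29.5%. No R273H or wildtype peak lay between the edge of the window and 431 kb from the cluster, so the choice of 50 kb did not decide which peaks were counted.

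The cluster pair overlapped in much the same way as other pairs of these lists. Over the whole lists, 21.9% of R273H peaks and 21.2% of wildtype peaks overlapped a peak of the other list by at least 1 bp, and the cluster peak did so in both. Among high-scoring peaks overlap was usual. Of the 154 wildtype peaks scoring 685.71 or more, 150 overlapped an R273H peak. Overlapping peaks formed 448 pairs. The midpoints of the cluster pair were 76 bp apart, against a median of 36.75 bp over all pairs (quartiles 16.5 to 80.1), and 327 pairs had closer midpoints. In 260 of the 448 pairs, 58.0% (95% exact binomial interval 53.3 to 62.7, neighbouring pairs not being independent), the R273H peak lay wholly inside its wildtype partner, as it did here. The overlap covered 76.5% of the wildtype peak at the cluster and a median of 75.2% over all pairs.

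**Figure D2:**
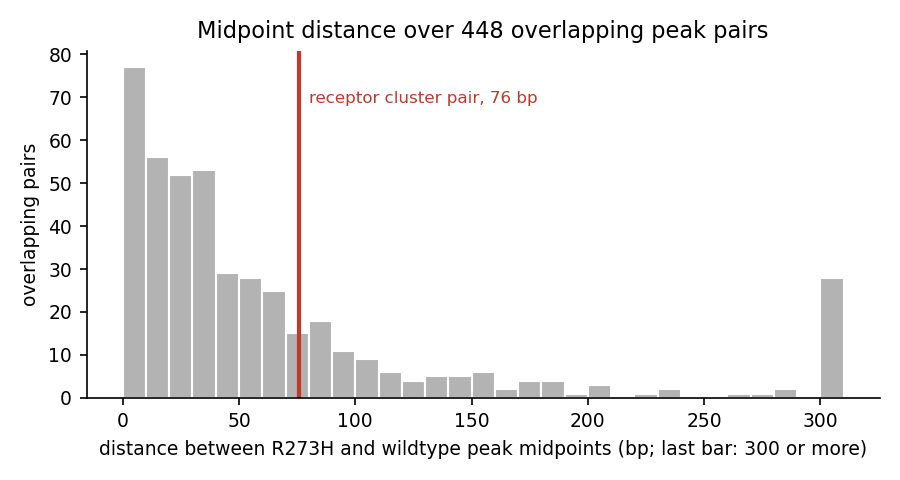
Number of overlapping R273H and wildtype peak pairs (y axis, 448 pairs) by the distance between their midpoints in bp (x axis, bars of 10 bp, the last holding 300 bp or more). The line marks the receptor cluster pair at 76 bp, above the median of 36.75 bp.

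By their rank in both lists, 6 other overlapping pairs outside the ribosomal stretch were most like the cluster pair, since the fifth place was tied. Likeness was the sum of the differences in rank percentile in the R273H and wildtype lists, over 1 library each. In order of likeness they lay 549 bp from TRD-GTC2-10, a transfer RNA gene (R273H score 1523.68), in LINC02099 (1809.58), in LOC124901737 (1449.27), at GAS6 and GAS6-AS1 (2445.39) and, equally alike, in CASZ1 (3100), a zinc finger transcription factor gene, and 38770 bp from LINC01732 (3100). Wildtype scores were 3100 at all 6, as at the cluster, so the order among them came from the R273H list alone. The percentile differences summed to 0.0498 at the first and 0.398 at CASZ1 and LINC01732. These pairs were chosen for their scores, which therefore say nothing further.

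STAT3 carried a wildtype peak and no R273H peak. The wildtype peak spanned 713 bp inside the gene (hg38 chromosome 17, 42337865 to 42338577). STAT3 runs on the minus strand over 75.1 kb, and the middle of the peak was 50.22 kb downstream of the annotated start. It was 24.5 kb from the 3′ end of the gene, beyond which lies STAT5A, a neighbouring STAT gene. Exon and intron positions were not available here. The peak scored 685.71, and 153 of the 2059 wildtype peaks scored higher, so that 92.5% of the list scored lower. On chromosome 17 it ranked below 9 of the list's 107 peaks. The next wildtype peak was 505 kb away, at a score of 92.93.

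**Figure D3:**
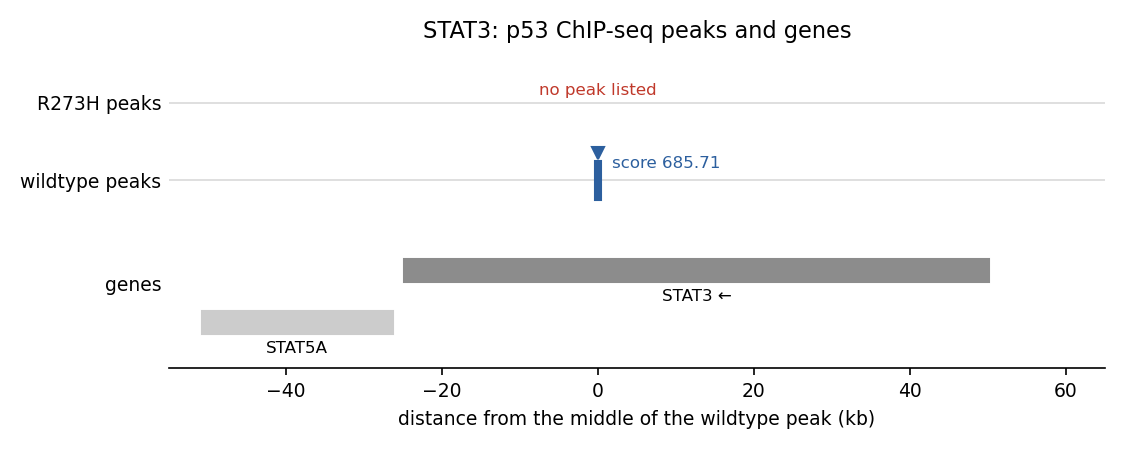
STAT3 (dark grey, read towards the left) and the neighbouring STAT5A (light grey) with p53 peaks by distance in kb from the middle of the wildtype peak, drawn to scale and marked by a triangle. The R273H row is empty, and the wildtype peak of 713 bp lies within STAT3.

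The R273H list had no peak in a stretch around STAT3, though longer empty stretches occurred on the same chromosome. It had no peak from 39047154, the end of the last one below the gene, to 43842531, the start of the next one above it, which is 4.80 Mb. The lower of these flanking R273H peaks scored 1177.64 and the upper one 60.26. The upper was the nearest R273H peak to the STAT3 site, at 1504 kb. Chromosome 17 as a whole held 105 R273H and 107 wildtype peaks, 15 of each with a partner in the other list. The R273H list starts at a score of 50.02, so weaker signal at STAT3 would not be listed. Reads were not available, and the R273H signal at this site is therefore unknown below that limit.

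A wildtype peak of this score without an R273H partner was uncommon in the list. Of the 154 wildtype peaks scoring at least as high as the STAT3 peak, 150 overlapped an R273H peak and 4 did not, STAT3 being one of them. The 20 peaks next above it in score, from 687.17 to 779.06, all had a partner, as did the 20 next below it, from 618.59 to 671.16. STAT3 was picked for having none, so these counts place it in its list and test nothing. Of the 4, 2 lay at least 1 Mb from any R273H peak, STAT3 among them. Over all 1622 wildtype peaks without a partner, the median distance to an R273H peak was 247 kb (quartiles 42 to 1230), and 21.9% were further away than the STAT3 peak.

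**Figure D4:**
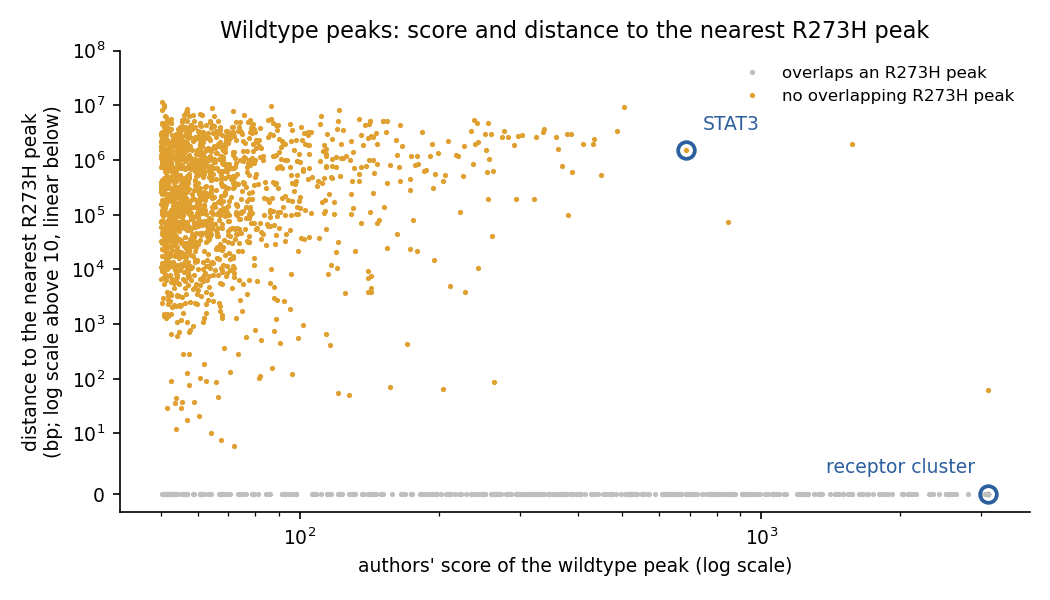
Each point is a wildtype peak, by the authors' score (x axis, log scale) and the distance in bp to the nearest R273H peak (y axis, log scale above 10, linear below; 0 means overlap). Grey points overlap an R273H peak and orange points do not. The receptor cluster peak (3100) sits at 0 and the STAT3 peak (685.71) at 1504 kb, circled in blue.

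The 5 unpartnered wildtype peaks closest in score to the STAT3 peak were spread over other chromosomes. They lay in TCERG1L with TCERG1L-AS1 (847.34), 11822 bp from the pseudogene RPS2P6 (504.94), 33720 bp from VENTXP2 (487.05), 62725 bp from LMNTD1 (450.31) and 56478 bp from LINC01049 (433.04). TCERG1L aside, none was inside an annotated gene as the STAT3 peak was.

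Beyond the loci themselves, few genes of the same signalling pathways carried a peak. The 7 lists of ligands, receptors, kinases, STAT factors, inhibitors and targets held 145 genes, of which 140 were other than the 5 genes chosen. Of these 140, 3 had an R273H peak inside or within 10 kb, 2.14% (95% exact binomial interval 0.444 to 6.14). The share over all 59679 annotated genes was 2.36%, and 3.09% over protein-coding genes. In the wildtype list 5 of the 140 had a peak, 3.57% (1.17 to 8.14), against 3.48% of all genes and 4.83% of protein-coding genes. Both shares were near these backgrounds and are no result about the pathways. Neighbouring genes were counted as independent, which makes both intervals too narrow. With the chosen genes included, 4 of 145 had an R273H peak and 7 a peak in the wildtype list. All 4 genes with an R273H peak, BCL2L1, IFNAR1, LIF and TRIM22, also had a wildtype peak. STAT3, STAT6 and IL20RB had a wildtype peak only, and 138 genes had none in either list. IFNAR1 and STAT3 were chosen by their peaks. The share of all annotated genes with a peak in both lists was not computed. How the pathway genes divide between the lists therefore has no baseline here and is no result.

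The ligands of the class II receptors had no peaks inside or within 10 kb. None of their 28 genes, from the type I interferons of chromosome 9 to IL10 and IL22, had a peak in either list (95% exact interval 0 to 12.3% in each). Neighbouring genes, such as the interferons of chromosome 9, were counted as independent, which makes this interval too narrow. The shares over all annotated genes, 2.36% for R273H and 3.48% for wildtype, lie inside this interval. The absence is therefore no result about the ligands. Among the 12 class II receptor genes, IFNAR1, which was chosen by its peaks, had a peak in both lists. IL20RB, a chain of the receptors for IL-19, IL-20 and IL-24, had a wildtype peak of 74 bp inside the gene (chromosome 3, 136967643 to 136967716), which scored 100.17 and had no R273H partner. IFNAR2, IL10RB, IFNGR2, IFNGR1, IL10RA, IFNLR1 and the remaining receptor genes had none within 10 kb.

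Among the 11 JAK and STAT genes, none had an R273H peak and 2, STAT3 and STAT6, had a wildtype peak. Over all annotated genes the shares were 2.36% for R273H and 3.48% for wildtype. STAT3 was chosen for having a wildtype peak only, so this contrast is partly built in. With STAT3 set aside, the contrast rests on STAT6 alone and is no result about the JAK and STAT genes. STAT6 encodes the factor activated by IL-4 and IL-13. The STAT6 peak (chromosome 12, 57096196 to 57096464) lay inside the gene 788 bp from its 3′ end and scored 141.07, so that 78.3% of the wildtype list scored lower. The kinase genes JAK1, JAK2, JAK3 and TYK2, and STAT5A and STAT5B next to STAT3, had none within 10 kb in either list. None of the 17 inhibitors of the pathway, among them SOCS1, SOCS3 and PIAS1, had a peak within 10 kb. With 2.36% of all genes called for R273H and 3.48% for wildtype, this absence is no result about the inhibitors.

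Each of the other 3 lists had 1 gene with peaks, and those peaks overlapped between the genotypes. With 2.36% of all genes called for R273H and 3.48% for wildtype, 1 gene is no result about a list. Of 18 IL-6 family ligands and receptors, LIF, a cytokine that signals through STAT3, had a peak scoring 70.46 for R273H and 130.51 for wildtype. Of 42 interferon-stimulated genes, TRIM22, an antiviral factor gene and also a known p53 target, had a peak scoring 264.08 for R273H and 614.84 for wildtype. The TRIM22 peak began 435 bp above the lower end of the gene for R273H and 353 bp above it for wildtype. Of 18 STAT3 target genes, BCL2L1, which encodes the survival protein BCL-XL, had 2 peaks in each list. They scored 191.95 and 143.92 for R273H, and 336.75 and 108.58 for wildtype. LIF, TRIM22 and BCL2L1 had their peaks inside the gene, whereas the IFNAR1 peak lay outside.

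Promoter windows seldom held a peak. Of the 35116 windows, 30 overlapped an R273H peak (0.0854%) and 65 a wildtype peak (0.185%). None of the 5 windows of the cluster genes and STAT3 was among them, nor was any of the 149 windows that the table holds for 109 of the 145 pathway genes. The site between IFNAR1 and IFNGR2 and the site within STAT3 were thus both remote from the annotated starts for which a window was available.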

How the data were processed

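The data were p53 ChIP-seq peak lists from 2 ChIP samples, R273H and wildtype. Cells were fixed in 1% formaldehyde for 5 minutes and sheared for 10 minutes, per the labels' protocols. Bowtie 1.2.2, MACS, HOMER and hg38 come from the submitters' processing notes, which are at hand without their roles; threshold and input use are not given in the sources at hand. Each deposited list gives position, name and the authors' score per peak. Lists were assigned by matching their names to the ChIP sample titles, R273H and ctrl-19-7. The description field conflicts with this: it gives the list named for R273H to both ChIP samples, and the list named ctrl-19-7 to both inputs. The 192 lowest-numbered R273H peaks and 227 wildtype peaks were not at hand and are not analysed here; read depth is unknown.

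Peaks were shared at an overlap of at least 1 bp. Gene spans and promoters came from RefSeq tables of GRCh38.p14 (hg38); peak sequence was not used here. Loci, gene lists and rules were chosen with earlier results of these data known. The genes named were those at or nearest the peaks, pathway genes with a peak within 10 kb, and the 5 closest pairs (6 with a tie) or peaks by rank or score. No p-value was computed; intervals cover counting error only. Alternatives were other flanks, other overlap rules and a common score filter. One gene of the lists is counted but not reported here by name. Overlap counting was tested on simulated data (Python 3.11.15, pandas 2.3.3, SciPy 1.17.1).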

Additional observations from a re-analysis of the deposited data

How the results depend on the processing

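Of 24 alternatives to 8 counts, 22 left the count within 1.5 times the reported one. The 2 that moved were the counts of pathway genes within 50 kb. Most of the others were counts of peaks or partners at the chosen loci, largely fixed by that choice. The total therefore says little about stability. The receptor cluster kept 1 R273H and 1 wildtype peak with a flank of 10 or 100 kb and when peaks scoring below the joint median of the lists (63.42) were left out. STAT3 kept 0 R273H peaks and 1 wildtype peak inside the gene, within 50 kb and at that score filter. These outcomes at both loci were fixed in advance and lend no support. The loci were chosen by peak scores far above 63.42, and the peaks lay inside the spans. The nearest other listed peaks were 431 kb from the cluster span and 480.6 kb from STAT3. The cluster pair stayed paired at 50% reciprocal overlap and with midpoints within 200 bp, and the STAT3 peak had no partner within 1000 bp. The loci were chosen with this pairing known, so these outcomes lend no support either. Within 50 kb of a gene, the pathway genes with a peak numbered 14 in the R273H list and 18 for wildtype, since a wider flank takes in more genes; all genes then reached 6.16% and 8.84%. IFNGR2 was among both, and STAT5A and STAT5B were among the wildtype genes. Within 2 kb the counts were 3 and 6, without IFNAR1, against 1.52% and 2.29% of all genes. No paired analysis was possible because each genotype had 1 ChIP library and no test was made. With 1 library and no reads, peaks below the lowest listed scores, 50.02 for R273H and 50.01 for wildtype, cannot be seen.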
